A study of Mus musculus with 48 samples.

Results

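CD4+ and CD8+ T cells sorted from tumor-draining lymph nodes (TDLNs) were compared across all genes, to describe the transcriptional programs that separate the 2 lineages in a node where T cells are primed. The comparison took the 8 libraries labelled WT CD4 TDLNs and WT CD8 TDLNs, 4 in each group, out of 48 libraries in the series. The mice were C57BL/6J littermate controls of a CD4-Cre Yap-floxed cross, 6 to 10 weeks old, and carried a subcutaneous B16F10 melanoma on the flank that drains to the sampled inguinal node. B16F10 is a mouse melanoma line that is transplantable into C57BL/6 mice. "WT" is used as the labels use it, and which of the Cre, floxed and EYFP reporter alleles each control carried is not given in the sources used here. Live cells were sorted by flow cytometry on CD45, CD3, CD4 and CD8, so CD4+ cells hold conventional and regulatory T cells together and naive cells were not separated from activated cells. Fewer cells of a type and less RNA per cell cannot be told apart in these bulk libraries. Node libraries labelled Yap-cKO (floxed Yap with CD4-Cre, which acts from the double-positive thymocyte stage on and so in CD4+ and CD8+ cells alike, 4 of each cell type) and WT tumor libraries (4 of each cell type) were used only to ask whether the same differences were present there.

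The fate of a developing T cell is set in the thymus, where ThPOK (encoded by Zbtb7b) holds cells in the CD4+ helper lineage and Runx3 silences Cd4 and supports the CD8+ cytotoxic lineage. CD4+ cells recognise peptides on MHC class II and help other cells through CD40 ligand and cytokines, and a subset of them, regulatory T cells, is specified by Foxp3. CD8+ cells recognise peptides on MHC class I and can kill target cells through perforin and granzymes. In a lymph node most cells of both lineages are naive and recirculate by way of Ccr7, L-selectin and S1pr1.

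Each library held between 15918058 and 21813436 counts on genes. Levels are given as CPM, counts scaled to library size after TMM normalization, and a fold change as CD4+ over CD8+ on the log2 scale, so that a positive value means a higher level in CD4+ cells. A gene was called a differentially expressed gene (DEG) at an adjusted p under 0.05 (edgeR quasi-likelihood test, Benjamini-Hochberg) and an absolute log2 fold change above 1. The labels do not say whether libraries with the same number came from one mouse, so the p-values measure the spread between these libraries. Except where the replicate block is named, the fit held no term for the replicate number. Marker sums of other cells, in CPM of all gene counts, were compared with those of other cells of the node. The 15 B cell markers summed to 326 to 650 CPM in CD4+ and 436 to 842 CPM in CD8+ cells, against 21299 to 24324 CPM in the CD45+ CD4- CD8- cells of the same nodes. The 20 myeloid and dendritic markers summed to 343 to 747 and 374 to 906 CPM, against 45962 to 84665 CPM. Y-linked genes summed to 94.7 to 153 CPM in CD4+ replicates 1 to 3 and to 8.48 CPM in replicate 4, and CD8+ replicates showed the same split, with 58.9 to 81.7 and 9.50 CPM.

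The sorted coreceptors separated the groups without overlap. Cd4 measured 781, 829, 835 and 650 CPM in the 4 CD4+ libraries and 2.17, 1.37, 3.09 and 1.51 CPM in the 4 CD8+ libraries, a log2 fold change of 8.58 (SE 0.36; edgeR adjusted p = 1.7e-06). Cd8a, one of the 2 chains of the CD8 coreceptor, measured 4.54, 3.24, 7.27 and 2.60 CPM in CD4+ libraries and 722, 1226, 1081 and 786 CPM in CD8+ libraries (log2 fold change -7.75, SE 0.44). Cd8b1, the other chain, was lower in CD4+ cells by the smaller log2 value of -5.48 (SE 0.33), with 25.6 to 42.6 CPM remaining in CD4+ libraries against 1035 to 2083 CPM in CD8+ libraries. Every library matched its label. Cd3e, a chain of the T cell receptor complex that both lineages carry, ranged from 756 to 1332 CPM in CD4+ and from 844 to 1500 CPM in CD8+ libraries, which overlap.

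Of 12785 genes tested, 481 (3.76%) were DEGs, with 276 (2.16%) higher in CD4+ and 205 (1.6%) higher in CD8+ cells. The median log2 fold change over all tested genes was -0.02. Of the DEGs, 479 had CD4+ and CD8+ values that did not overlap, against 8.84% of all tested genes, and the others were Ier3 and Klk8, named here after their values were seen. The DEGs were selected on these same values, so this separation is largely set by the selection. The difference was above 8-fold for 68 DEGs higher in CD4+ and for 57 higher in CD8+ cells. Libraries of the same replicate number deviated together, and with the replicate number as a block 891 genes (6.97%) were DEGs, 537 higher in CD4+ and 354 higher in CD8+, among them 478 of the 481. The count depended on single libraries: it was 276 without CD4+ replicate 1, 272 without CD4+ replicate 3, 307 without CD8+ replicate 1 and 317 without CD8+ replicate 2.

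**Figure D1:**
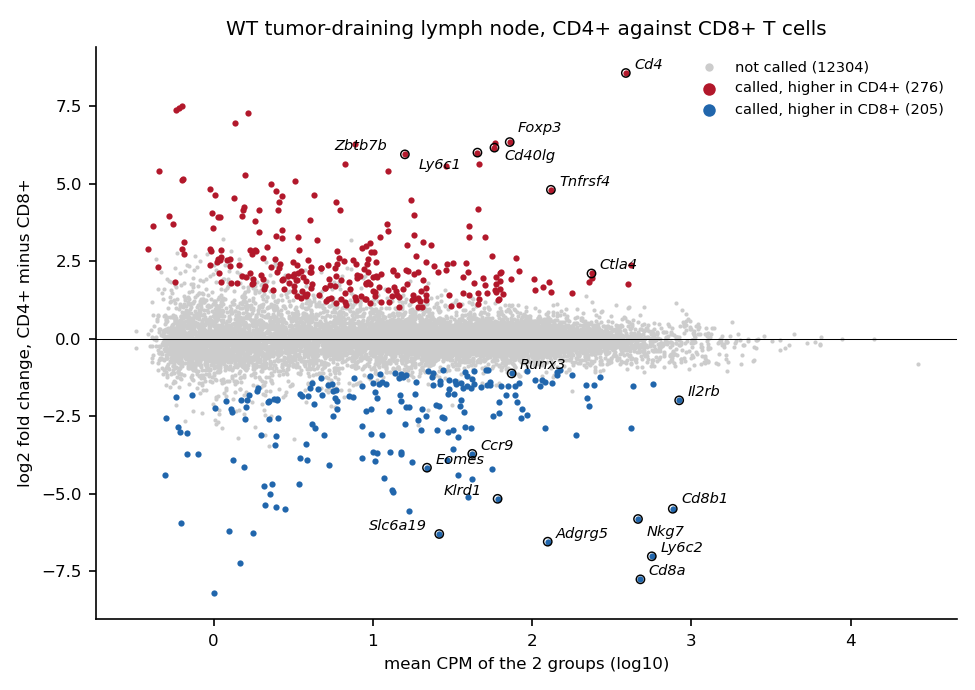
Each point is a tested gene; the x axis is the log10 of its mean CPM over the 2 groups and the y axis its log2 fold change, CD4+ minus CD8+. The 276 DEGs higher in CD4+ cells (red) and 205 higher in CD8+ cells (blue) lie apart from the band of uncalled genes around 0, with Cd4 at the top, and Ly6c2, Adgrg5 and Cd8a near the bottom at high CPM.

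Lineage transcription factors differed in both directions. Of 23 tested, against 3.76% called over all tested genes, 2 were higher in CD4+ and 4 higher in CD8+ cells, and the median log2 fold change of the list was 0.00, against -0.02 over all tested genes. Zbtb7b, which encodes ThPOK, measured 9.59, 57.9, 15.9 and 41.8 CPM in CD4+ libraries and 0.422, 0.708, 0.275 and 0.558 CPM in CD8+ libraries (log2 fold change 5.95, SE 0.66; edgeR adjusted p = 0.00078). The CD4+ libraries varied by several fold among themselves but lay far above every CD8+ library. Runx3 was a difference of degree. Its CPM were 47.6, 49.7, 48.9 and 42.1 in CD4+ and 112, 96.9, 113 and 85.3 in CD8+ libraries, 2.16-fold higher in CD8+ cells (log2 fold change -1.11, SE 0.19; edgeR adjusted p = 0.0074), and with transcript length offsets the log2 fold change was -0.94, under the threshold for a DEG.

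The other RUNX genes split. Runx1, which represses Cd4 in early thymocytes, was higher in CD4+ cells at 76.1, 87.7, 100 and 78.9 CPM against 29.2, 38.7, 35.1 and 41.3 CPM (log2 fold change 1.25, SE 0.20). Runx2 was higher in CD8+ cells, with 9.76 to 14.8 CPM against 3.52 to 5.47 CPM (log2 fold change -1.51, SE 0.27), and was no longer a DEG without CD4+ replicate 1 (edgeR adjusted p = 0.062). Their shared cofactor Cbfb had a log2 fold change of 0.00.

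The T-box factors of effector and memory CD8+ cells were both higher in CD8+ libraries. Tbx21 (T-bet) measured 2.36 to 12 CPM in CD4+ and 33.4 to 108 CPM in CD8+ cells (log2 fold change -3.18, SE 0.53). Eomes measured 0.673 to 3.30 CPM in CD4+ and 26.0, 45.5, 27.4 and 66.9 CPM in CD8+ cells (log2 fold change -4.15, SE 0.52; edgeR adjusted p = 0.0014). Gata3, which acts upstream of ThPOK, reached a log2 fold change of 1.02 (SE 0.30) with values that did not overlap but an edgeR adjusted p of 0.121, and with the replicate block its adjusted p was 0.00105. Tox (0.63, SE 0.18) was not a DEG, and Tcf7, Lef1, Bcl11b, Ets1 and Satb1, which act in both lineages, had log2 fold changes of 0.22 to 0.61 and were not called.

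Runx3 is transcribed from a distal and a proximal promoter. The transcript that starts at the distal promoter, Runx3-201, took 78.4% ± 9.46 of Runx3 TPM in CD4+ and 89.7% ± 2.67 in CD8+ cells (SD, n = 4), a difference that did not reach significance (exact two-sided permutation test, p = 0.0857). RUNX proteins bind the letters TGTGGT, so the bases before the start sites of Runx3 (distal promoter) and of 2 effector genes that are higher in CD8+ cells are given here with each TGTGGT in capitals (ACCACA where it lies on the other strand). These 250-base windows are from RefSeq on GRCm38.p6, plus strand, at chr4:135120395-135120644 for Runx3, chr7:43436888-43437137 for Nkg7 and chr10:61297586-61297835 for Prf1.
Runx3: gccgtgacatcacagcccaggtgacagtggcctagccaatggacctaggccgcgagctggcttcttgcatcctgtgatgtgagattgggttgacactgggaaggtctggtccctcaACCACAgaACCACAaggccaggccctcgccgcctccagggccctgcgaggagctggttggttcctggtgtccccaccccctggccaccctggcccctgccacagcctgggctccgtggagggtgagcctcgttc
Nkg7: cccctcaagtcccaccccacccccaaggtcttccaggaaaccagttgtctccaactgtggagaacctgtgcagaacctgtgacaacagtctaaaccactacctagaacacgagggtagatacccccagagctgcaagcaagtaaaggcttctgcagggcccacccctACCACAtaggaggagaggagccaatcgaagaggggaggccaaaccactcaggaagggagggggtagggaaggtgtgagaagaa
Prf1: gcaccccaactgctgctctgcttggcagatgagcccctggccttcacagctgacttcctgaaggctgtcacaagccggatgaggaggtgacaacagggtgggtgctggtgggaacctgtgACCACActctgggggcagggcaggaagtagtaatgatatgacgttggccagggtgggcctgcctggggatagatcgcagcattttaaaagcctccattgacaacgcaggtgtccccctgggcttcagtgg
The Runx3 window holds 2 copies and the other windows 1 each. Of 32851 RefSeq windows of this length, 14% hold at least 1 copy, and the windows of Cd8a, Eomes and Foxp3 hold none. Among the other windows looked up, 1 of the 2 Zbtb7b windows and 1 of the 2 Gzmm windows hold 1 copy, and the proximal Runx3 window holds none. A match is a description of these letters and not a binding site, and the windows were chosen after the values of their genes were seen.

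**Figure D2:**
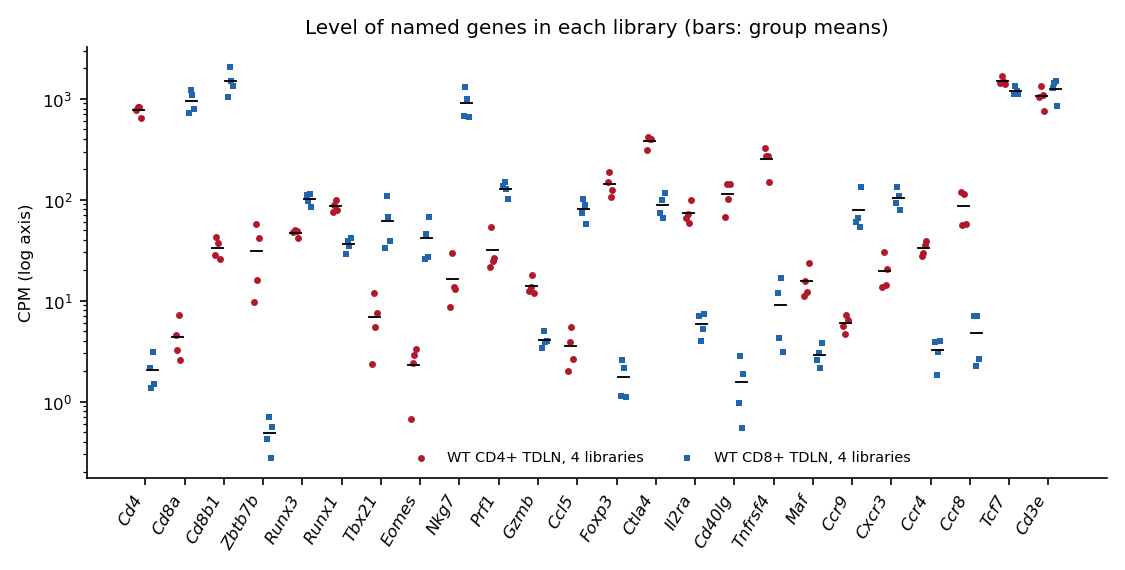
The level of 24 genes in each library, as CPM on a log axis; red circles are the 4 WT CD4+ and blue squares the 4 WT CD8+ TDLN libraries, and black bars are group means. The coreceptors, Zbtb7b, Nkg7 and Foxp3 lie in bands that do not meet, Runx3 and Runx1 in bands close together, and Cd3e in overlapping bands.

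Cytotoxic and CD8-type genes were the group with most DEGs in CD8+ cells. Of 24 tested, 16 were higher in CD8+ and 2 higher in CD4+ cells, against 1.6% and 2.16% of all tested genes. The list had a median log2 fold change of -2.70. Like the other gene lists, it was chosen with earlier results of these data known. Nkg7, a granule protein of cytotoxic cells, measured 671, 1314, 995 and 657 CPM in CD8+ libraries and 8.64, 29.5, 13.8 and 12.9 CPM in CD4+ libraries (log2 fold change -5.81, SE 0.47; edgeR adjusted p = 0.00015). Per length it reached 1747 ± 503 TPM in CD8+ cells (SD, n = 4), above Cd8b1 at 1455 ± 460 TPM and Cd8a at 551 ± 125 TPM. Prf1, which encodes perforin, was at a lower level, 74.7 ± 10.6 TPM in CD8+ and 20.6 ± 8.66 TPM in CD4+ cells.

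Granule genes were not one block. Prf1 measured 137, 148, 128 and 102 CPM in CD8+ and 21.8, 53.7, 24.8 and 26.4 CPM in CD4+ libraries (log2 fold change -2.02, SE 0.31). The protease gene Ctsw measured 561 to 932 CPM against 78.9 to 154 CPM (log2 fold change -2.86, SE 0.30), and Cst7, which encodes the cysteine protease inhibitor cystatin F, 104 to 202 CPM against 16.5 to 34.3 CPM. Among granzymes, Gzmm was higher in CD8+ cells (18.3 to 32.5 against 0.813 to 3.31 CPM; log2 fold change -3.66, SE 0.44). Gzma had a log2 fold change of -3.44 (SE 0.92) at low levels, 1.93 to 9.05 against 0 to 1.11 CPM, and an edgeR adjusted p of 0.0794 (0.00238 with the replicate block).

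Gzmb went the other way. It measured 12.3, 13.6, 18.0 and 11.9 CPM in CD4+ and 3.44, 5.01, 3.92 and 3.96 CPM in CD8+ libraries, 3.41-fold higher in CD4+ cells (log2 fold change 1.77, SE 0.26; edgeR adjusted p = 0.0037). Fasl, the ligand of the death receptor Fas, was also higher in CD4+ cells, at 55.8 to 81.3 against 13.3 to 34.5 CPM (log2 fold change 1.47, SE 0.35; edgeR adjusted p = 0.049), a call that was lost with RLE size factors (adjusted p = 0.0506) and when any one of the 8 libraries but CD8+ replicate 4 was left out (adjusted p up to 0.132). Ifng, whose product is the effector cytokine interferon gamma, measured 1.85 to 3.38 CPM in CD4+ and 1.92 to 4.25 CPM in CD8+ libraries and was not called.

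Several NK cell receptor genes were higher in CD8+ cells. Klrd1, which encodes CD94, measured 115, 126, 90.2 and 142 CPM in CD8+ and 2.13, 3.85, 3.55 and 3.68 CPM in CD4+ libraries (log2 fold change -5.16, SE 0.29; edgeR adjusted p = 1.2e-05). Its partner chains followed at lower levels, Klrc1 (NKG2A) at 2.20 to 11 against 0.164 to 0.379 CPM and Klrc2 (NKG2C) at 1.03 to 4.74 against 0 to 0.488 CPM. Klrc2 was no longer a DEG without any one of CD4+ replicates 1, 2 and 3 (edgeR adjusted p up to 0.123), and near-identical copies make the split of reads between Klrc genes uncertain. Klra7, an inhibitory Ly49 receptor, had at most 1 count in any CD4+ library and 0.756 to 5.58 CPM in CD8+ libraries, at least 18.5-fold higher against a floor of 3 counts in each CD4+ library. Klre1 was also a DEG (log2 fold change -3.12, SE 0.41), whereas Klrk1 (NKG2D) was not (-1.23; edgeR adjusted p = 0.48).

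NK cells themselves share this program. The NK marker Ncr1 did not pass the count filter, and Klrb1c, which encodes NK1.1, measured 0.437 to 2.87 CPM in CD4+ and 0.481 to 2.73 CPM in CD8+ libraries. The 16 NK and unconventional T cell markers, of which 14 were in the files and Klra7 and Eomes belong to the genes above, summed to 86.8 to 119 CPM in CD4+ and 82.4 to 181 CPM in CD8+ libraries. The CD45+ CD4- CD8- node cells, at 62.9 to 178 CPM, were in the same range. Much of the sums in T cells came from Cd1d1, with means of 70.7 CPM in CD4+ and 42.0 CPM in CD8+ libraries. Eomes added a mean of 41.6 CPM in CD8+ libraries (CPM of all gene counts). These sums therefore do not measure NK cell content. The part of NK and unconventional T cells in the NK receptor differences was not tested.

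Chemokine and surface genes completed the CD8+ list. Ccl5 measured 57.0 to 101 against 2.02 to 5.52 CPM (log2 fold change -4.50, SE 0.37) and Xcl1, which attracts cross-presenting dendritic cells, 8.02 to 26.8 against 1.01 to 1.85 CPM (log2 fold change -3.68, SE 0.42). The receptors Slamf7 and Cd160 were higher in CD8+ cells with log2 fold changes of -2.80 and -2.60, and both calls were lost without any one of CD4+ replicates 1, 2 and 3 and CD8+ replicate 2 (edgeR adjusted p up to 0.126 for Slamf7 and 0.0880 for Cd160). Crtam had values that did not overlap, 11.7 to 55.9 against 2.80 to 11.4 CPM, but an edgeR adjusted p of 0.0603 (5.1e-05 with the replicate block). Ly6c2, a surface protein of memory CD8+ cells, was the second largest difference toward CD8+ cells after Cd8a among the genes named by size, at 1011, 1460, 1374 and 637 CPM in CD8+ and 6.73 to 11.7 CPM in CD4+ libraries (log2 fold change -7.01, SE 0.39).

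The close paralog Ly6c1 was opposite. It measured 83.6, 130, 77.9 and 65.6 CPM in CD4+ and 1.03 to 1.72 CPM in CD8+ libraries (log2 fold change 6.01, SE 0.35; edgeR adjusted p = 1.2e-05). The 2 genes are highly similar, so reads can be assigned to the wrong copy, and the levels of each are uncertain. Ly6a (Sca-1), another member of the family, was 3.8-fold higher in CD4+ cells (log2 fold change 1.93, SE 0.34).

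The 12 largest differences toward CD8+ cells, in order, were Cd8a, Ly6c2, Adgrg5, Slc6a19, Nkg7, Haao, Cd8b1, Wdr95, Klrd1, Plac8, Samd3 and Eng, among DEGs with separate values and at least 5 CPM. Several are not usual members of a cytotoxic list. Adgrg5, an adhesion G protein-coupled receptor, measured 216, 306, 241 and 229 CPM in CD8+ and 2.52, 2.41, 2.62 and 3.09 CPM in CD4+ libraries, a 93.0-fold difference (log2 fold change -6.54, SE 0.24; edgeR adjusted p = 1.01e-06). Slc6a19, a transporter of neutral amino acids known from gut and kidney, measured 37.4, 77.0, 44.8 and 47.2 CPM in CD8+ and 0.449 to 0.788 CPM in CD4+ libraries.

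Haao, which encodes an enzyme of tryptophan breakdown to quinolinate, measured 23.1 to 48.9 CPM in CD8+ and 0.596 to 0.788 CPM in CD4+ libraries (log2 fold change -5.56, SE 0.34). Eng, which encodes the TGF-β coreceptor endoglin, measured 22.5 to 28.2 CPM in CD8+ and 0.328 to 1.68 CPM in CD4+ libraries (log2 fold change -4.89, SE 0.47). Endothelial cells also express Eng. Of their markers, Cdh5 had at most 2 counts in any of the 8 libraries, and Pecam1, which T cells also express, measured 146 to 207 CPM of all gene counts in CD4+ and 78.6 to 129 CPM in CD8+ libraries. The part of endothelial cells in the Eng values was not tested. Plac8 measured 46.7 to 113 CPM against 1.12 to 4.81 CPM, and Wdr95 4.07 to 8.60 CPM against 0 to 0.219 CPM.

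Regulatory T cell genes were the group with most DEGs in CD4+ cells. Of 20 tested, 15 were higher in CD4+ and none was higher in CD8+ cells, against 2.16% and 1.6% of all tested genes. The list had a median log2 fold change of 2.26. Foxp3 measured 151, 190, 107 and 124 CPM in CD4+ and 1.15, 2.58, 2.13 and 1.12 CPM in CD8+ libraries (log2 fold change 6.35, SE 0.38; edgeR adjusted p = 1.3e-05). Lrrc32, which encodes GARP and holds latent TGF-β on the cell surface, measured 158, 125, 102 and 76.2 CPM against 0.860 to 2.82 CPM (log2 fold change 6.31, SE 0.46). Itgb8, the integrin chain that activates this latent TGF-β, measured 2.18 to 7.15 CPM against 0 to 0.301 CPM (log2 fold change 5.01, SE 0.71).

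Cytokine genes of this list were at low levels in the CD4+ libraries, which hold conventional and regulatory T cells together. Il10 measured 4.71, 9.92, 6.01 and 4.44 CPM in CD4+ and 0 to 0.344 CPM in CD8+ libraries (log2 fold change 5.09, SE 0.64), and Ebi3, a subunit of IL-27 and IL-35, 3.59 to 6.39 CPM against 0.101 to 0.446 CPM. Il2ra, the high-affinity IL-2 receptor chain, measured 66.1, 72.0, 58.7 and 99.7 CPM against 3.95 to 7.42 CPM (log2 fold change 3.65, SE 0.30), whereas Il2rb, the signaling chain shared with IL-15, was the reverse, at 285 to 463 CPM in CD4+ and 667 to 1787 CPM in CD8+ libraries (log2 fold change -1.98, SE 0.34). The chain that completes both receptors, Il2rg, had a log2 fold change of 0.04 and overlapping values.

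Other members that were DEGs included the inhibitory receptor Ctla4 (312 to 419 against 66.1 to 116 CPM, log2 fold change 2.11, SE 0.24). Ikzf4, Gpr83, Nrp1, Swap70 and Izumo1r had log2 fold changes of 2.19 to 3.69, and Tnfrsf9, Socs2 and Capg of 1.57 to 1.83. The last 3 were lost when single libraries were left out. Tnfrsf9 was lost without CD4+ replicate 3 or CD8+ replicate 2 (edgeR adjusted p up to 0.0589), and Capg without CD4+ replicate 2 or 3 or CD8+ replicate 1 (up to 0.0797). Socs2 was lost without any one of CD4+ replicates 1, 2 and 4 and CD8+ replicates 1, 2 and 3 (edgeR adjusted p up to 0.0704). The 5 members not called were Entpd1, Ikzf2, Nt5e, Tnfrsf18 and Tigit. Tnfrsf18 (GITR) measured 154 to 344 CPM in CD4+ and 99.8 to 256 CPM in CD8+ libraries, and Ikzf2 (Helios) 30.8 to 72.4 and 7.64 to 41.3 CPM, so both were present in each lineage with overlapping values, and Ikzf2 was a DEG with the replicate block (edgeR adjusted p = 0.00405).

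The 12 largest differences toward CD4+ cells were Cd4, Foxp3, Lrrc32, Il1r2, Cd40lg, Ly6c1, Zbtb7b, Klrg1, St8sia6, Pdlim4, Penk and Il10. Il1r2, the decoy receptor of interleukin-1, measured 12.8 to 20.8 CPM against 0 to 0.390 CPM (log2 fold change 6.29, SE 0.60). Klrg1, often used as a marker of short-lived effector CD8+ cells, was instead higher in CD4+ cells here, at 11.2, 11.7, 22.3 and 7.31 CPM against 0.181, 0.202, 0.550 and 0.112 CPM (log2 fold change 5.66, SE 0.56; edgeR adjusted p = 0.00043). Penk, which encodes the opioid precursor proenkephalin, measured 19.1, 16.4, 49.7 and 11.5 CPM against 0.241 to 0.725 CPM. St8sia6, a sialyltransferase, measured 52.8 to 144 CPM against 0.481 to 4.13 CPM, and Pdlim4 35.8 to 99.0 CPM against 0.482 to 1.99 CPM.

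Helper genes were led by Cd40lg, the signal by which CD4+ cells license B cells and dendritic cells. It measured 67.4, 145, 103 and 143 CPM in CD4+ and 0.964, 2.83, 0.550 and 1.90 CPM in CD8+ libraries (log2 fold change 6.17, SE 0.53; edgeR adjusted p = 0.0002). Of 20 helper genes tested, 6 were higher in CD4+ and none higher in CD8+ cells, against 2.16% and 1.6% of all tested genes. The median log2 fold change of the list was 0.94. The 6 were Cd40lg, Tnfrsf4, Il1rl1, Il2, Maf and Pdcd1.

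Tnfrsf4, which encodes the costimulatory receptor OX40, measured 323, 268, 274 and 149 CPM against 3.07 to 16.9 CPM (log2 fold change 4.81, SE 0.57). Il1rl1, which encodes the IL-33 receptor ST2 of type 2 helper and regulatory T cells, measured 4.73 to 14.2 CPM against 0.303 to 0.663 CPM (log2 fold change 4.42, SE 0.46). Maf measured 11.1 to 23.5 CPM against 2.13 to 3.79 CPM (log2 fold change 2.43, SE 0.33). Il2 was low, 1.79 to 6.66 CPM against 0.181 to 1.12 CPM, and was lost without any one of CD4+ replicates 2, 3 and 4 and CD8+ replicates 1, 2 and 3 (edgeR adjusted p up to 0.0908).

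Follicular helper genes did not move as one. Pdcd1 (PD-1) was higher in CD4+ cells at 67.7 to 110 CPM against 16.8 to 42.2 CPM (log2 fold change 1.57, SE 0.31), and was lost without CD4+ replicate 1 or 3 or CD8+ replicate 2 (edgeR adjusted p up to 0.0700). Icos had a log2 fold change of 1.03 (edgeR adjusted p = 0.0827, and 0.00659 with the replicate block) and Bcl6 of 0.99 (0.25). Cxcr5, which brings T cells and B cells into the follicle, had the opposite sign, at 9.14, 25.3, 10.3 and 17.1 CPM in CD4+ and 37.4, 41.0, 37.4 and 30.6 CPM in CD8+ libraries (log2 fold change -1.24, SE 0.33; edgeR adjusted p = 0.0759, and 0.00985 with the replicate block). B cells also express Cxcr5, and all 14 tested B cell markers had a negative log2 fold change (median -0.73). Of them Cd79b was a DEG, at 5.50 to 14.7 against 16.2 to 43.1 CPM (edgeR adjusted p = 0.038, a call lost without any one of CD4+ replicates 1, 2 and 4 and CD8+ replicates 2 and 3), and 4 were DEGs with the replicate block. The part of B cells in the Cxcr5 values was not tested.

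Costimulatory receptors and ligands of the TNF and B7 families leaned to CD4+ cells. The 25 tested had a median log2 fold change of 0.71. Of these, 8 were higher in CD4+ and none higher in CD8+ cells, against 2.16% and 1.6% of all tested genes. The count fell to 4 without CD4+ replicate 3 and to 5 without CD8+ replicate 2. Besides the genes above, Tnfsf11, which encodes RANKL, measured 47.5 to 85.8 against 8.11 to 22.4 CPM (log2 fold change 2.17, SE 0.34). Tnfrsf25 (DR3) had a log2 fold change of 1.27 (SE 0.27) and was lost without any one of CD4+ replicates 2 and 3 and CD8+ replicates 1, 2 and 3 (edgeR adjusted p up to 0.104). Havcr2, the inhibitory receptor TIM-3, was low but separate, at 3.48, 3.15, 3.39 and 4.6 CPM in CD4+ and 0.0603 to 0.390 CPM in CD8+ libraries (log2 fold change 4.15, SE 0.53; edgeR adjusted p = 0.0016). Cd27 had a log2 fold change of -0.01 and Cd28 of 1.11 with overlapping values (edgeR adjusted p = 0.191, and 0.0139 with the replicate block).

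Most chemokine receptors were not called, and those that were went in both directions. Of 18 tested, 4 were higher in CD4+ and 2 higher in CD8+ cells, against 2.16% and 1.6% of all tested genes. The median log2 fold change was -0.03, and with the replicate block 6 and 5 were called. Ccr9, which directs cells to the small intestine, measured 60, 66.2, 53.5 and 133 CPM in CD8+ and 4.63 to 7.27 CPM in CD4+ libraries (log2 fold change -3.71, SE 0.35; edgeR adjusted p = 0.00034). Cxcr3, which guides effector cells toward interferon-induced chemokines, measured 79.9 to 133 CPM in CD8+ and 13.6 to 30.7 CPM in CD4+ libraries (log2 fold change -2.38, SE 0.31).

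The receptors higher in CD4+ cells were Ccr4, Ccr6, Ccr8 and Ccr3. Ccr8 measured 118, 56.6, 115 and 57.9 CPM in CD4+ and 2.28 to 7.08 CPM in CD8+ libraries (log2 fold change 4.20, SE 0.49). Ccr4, a skin-homing receptor, measured 27.7 to 39.3 against 1.82 to 4.02 CPM, and Ccr6, found on Th17 and regulatory cells, 13.6 to 30.2 against 2.84 to 5.64 CPM. Ccr3 was at 0 counts in all 4 CD8+ libraries and at 0.834 to 1.84 CPM in CD4+ libraries, at least 7.16-fold higher against a floor of 3 counts in each CD8+ library. Ccr7 and S1pr1, which govern entry into and exit from the node, had log2 fold changes of -0.12 and 0.38 with overlapping values.

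Among 16 integrins tested, 2 (Itgb3 and Itgb8) were higher in CD4+ and 1 (Itgae) higher in CD8+ cells, against 2.16% and 1.6% of all tested genes. With the replicate block 3 and 2 were called. Itgae, which encodes CD103 and holds T cells in epithelia, measured 158 to 258 CPM in CD8+ and 57.8 to 91.8 CPM in CD4+ libraries (log2 fold change -1.42, SE 0.23). Itgb3 measured 150, 146, 138 and 112 CPM in CD4+ and 17.2 to 30.6 CPM in CD8+ libraries (log2 fold change 2.60, SE 0.25; edgeR adjusted p = 0.00034). Of 29 cytokine receptors (median log2 fold change -0.00), 6 were higher in CD4+ cells, against 2.16% of all tested genes, and 2 higher in CD8+ cells, against 1.6%. The 6 were Il1r2, Il1rl1, Il2ra, Il9r, Il17rb and Tgfbr3, and the 2 were Il2rb and Il18rap. Tgfbr3 measured 130 to 181 against 25.7 to 57.1 CPM and Il9r 5.78 to 13.4 against 1.34 to 2.13 CPM. Il18rap was lost without any one of CD4+ replicates 1, 2 and 3 and CD8+ replicates 1 and 2 (edgeR adjusted p up to 0.133), and Il17rb without any library but CD8+ replicate 1 (up to 0.138).

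**Figure D3:**
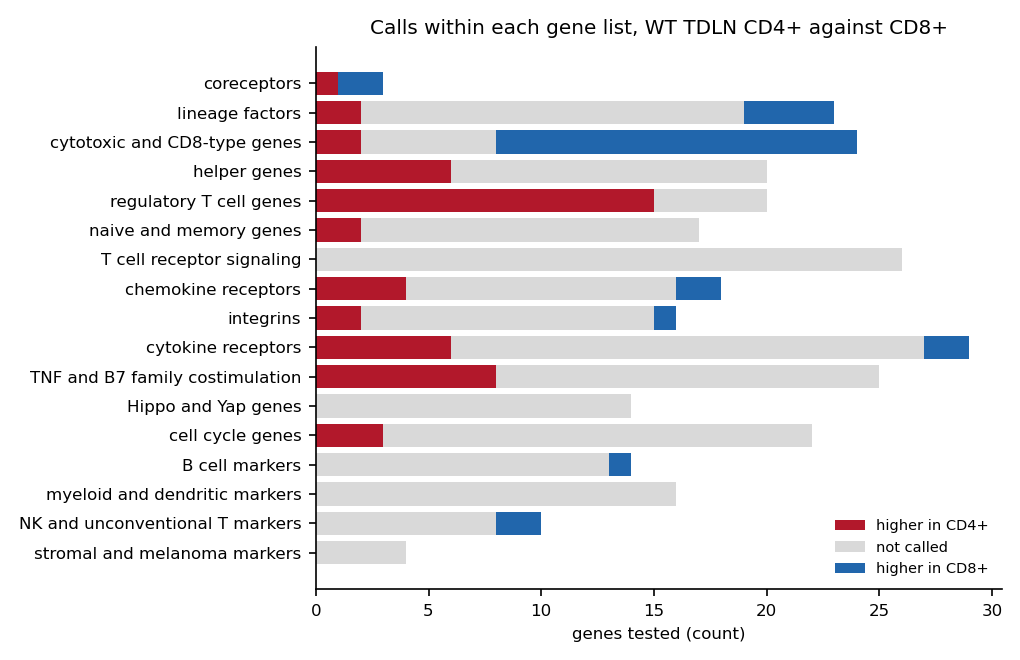
The count of tested genes in each list, split into DEGs higher in CD4+ cells (red), genes not called (grey) and DEGs higher in CD8+ cells (blue). The cytotoxic list is mostly blue (16 of 24) and the regulatory T cell list mostly red (15 of 20), and the T cell receptor signaling and Hippo lists are wholly grey.

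Genes common to all T cells were mostly not called. None of 26 T cell receptor signaling genes was a DEG, against 3.76% of all tested genes. A list this short would hold few DEGs at that share. With the replicate block 2 were higher in CD4+ cells, and the log2 fold changes ran from -0.79 for Themis2 to 1.11 for Cd28. Cd5, whose level follows the strength of self-recognition, measured 453, 797, 470 and 418 CPM in CD4+ and 249, 336, 300 and 191 CPM in CD8+ libraries, values that do not overlap, but was not called (log2 fold change 0.99, SE 0.28; edgeR adjusted p = 0.092). Of 17 naive and memory genes, Ly6c1 and Ly6a were higher in CD4+ cells, against 2.16% of all tested genes, and the other 15 were not called. Cd44, which marks cells that have met antigen, measured 80.4 to 101 CPM in CD4+ and 37.1 to 59.4 CPM in CD8+ libraries (log2 fold change 0.89, SE 0.22; edgeR adjusted p = 0.060).

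None of 14 Hippo pathway genes tested was a DEG, against 3.76% of all tested genes, or with the replicate block, against 6.97%. At these shares so short a list would hold few DEGs. Yap1, the gene targeted in the other genotype of the study, measured 2.08, 1.20, 1.26 and 1.95 CPM in CD4+ and 2.53, 2.12, 2.06 and 2.29 CPM in CD8+ libraries, which overlap (log2 fold change -0.47, SE 0.32; edgeR adjusted p = 0.70). The TEAD partners of Yap did not pass the count filter, apart from Tead2 (0.481 to 1.47 CPM over the 8 libraries).

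Cell cycle genes leaned to CD4+ cells by a margin that depended on the fit. Of 22 tested, 3 were higher in CD4+ cells (Ccna2, Rrm2 and Ube2c), against 2.16% of all tested genes. A positive log2 fold change was found for 17, and the median was 1.01. With the replicate block 11 were higher in CD4+ cells. Without CD4+ replicates 1, 3 or 4 or CD8+ replicates 1 or 3 none was called, and without CD4+ replicate 2 only 1 was. Rrm2, a subunit of ribonucleotide reductase, measured 40.2, 39.9, 54.4 and 55.5 CPM in CD4+ and 17.3, 29.8, 17.5 and 23.7 CPM in CD8+ libraries. Mki67 was at 23.7 CPM in CD4+ replicate 4 and 5.91 CPM in CD8+ replicate 4, and at 0.181 to 0.841 CPM in the other 6 libraries. Its log2 fold change was 1.82 (SE 1.33) with all libraries and -1.26 without CD4+ replicate 4, and it was not called.

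T cell receptor variable genes showed a lineage bias in usage. Of 21 Trbv genes tested, 4 were higher in CD4+ and 5 higher in CD8+ cells, against 2.16% and 1.6% of all tested genes. For the 86 Trav genes tested the counts were 11 and 1 (15 and 4 with the replicate block). Trav totals were 8238 to 13927 counts in CD4+ and 5009 to 9551 in CD8+ libraries. The median log2 fold change of the Trav genes was 0.53, so these calls do not measure usage within the locus. As a mean share of Trav counts, Trav4n-4 took 2.54% in CD4+ and 0.871% in CD8+ cells. Trav12n-3, not called, took 1.51% in CD4+ and 4.39% in CD8+ cells. As a share of all Trbv counts in a library, Trbv31 took 10%, 9.51%, 11.1% and 8.63% in CD4+ and 2.66%, 2.59%, 2.97% and 2.20% in CD8+ libraries (CPM log2 fold change 1.98, SE 0.28; edgeR adjusted p = 0.0030). Trbv29 took 1.42%, 0.921%, 1.15% and 1.42% in CD4+ and 6.09%, 4.68%, 6.49% and 5.27% in CD8+ libraries (log2 fold change -2.16, SE 0.24; edgeR adjusted p = 0.00074). The shares of the 4 libraries of a group lay close together beside the distance between the groups.

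The Trbv12 genes followed Trbv29. Trbv12-1 took 1.60% ± 0.308 of Trbv counts in CD4+ and 7.46% ± 1.17 in CD8+ cells (SD, n = 4), and Trbv12-2 3.82% ± 0.347 and 10.4% ± 0.676. Trbv14 took 2.28% ± 0.211 in CD4+ and 6.24% ± 0.503 in CD8+ cells, and was no longer a DEG without any one of CD4+ replicates 1, 3 and 4 and CD8+ replicates 1, 2 and 3 (edgeR adjusted p up to 0.0998). Trbv5, Trbv20 and Trbv2 were on the CD4+ side with Trbv31, with 7.85% ± 0.688 against 3.81% ± 0.211 for Trbv5. Trbv5 was lost without any one of CD4+ replicates 1, 2 and 3 and CD8+ replicates 1 and 3 (edgeR adjusted p up to 0.0868), and Trbv2 without CD8+ replicate 1 (0.0610). Locus totals overlapped, at 11803 to 22366 Trbv counts in CD4+ and 10385 to 17946 in CD8+ libraries.

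At the alpha locus the largest calls toward CD4+ cells were Trav4n-4 (log2 fold change 2.02, SE 0.29), Trav14d-3-dv8 (1.69, SE 0.27), Trav4-4-dv10 (1.64, SE 0.31) and Trav21-dv12 (1.55, SE 0.30). The only call toward CD8+ cells was Trav9n-3 (-1.27, SE 0.30; edgeR adjusted p = 0.046), and it was lost without any library but CD8+ replicate 4 (up to 0.165). Trav4-4-dv10 was lost without CD4+ replicate 3 or CD8+ replicate 1 (edgeR adjusted p up to 0.0568), and Trav21-dv12 without CD4+ replicate 1 or 3 or CD8+ replicate 1 or 3 (up to 0.0687). The Trav locus holds duplicated blocks of near-identical genes, so single Trav values are uncertain. In nodes labelled Yap-cKO, whose libraries took no part in these calls, all 9 Trbv and all 12 Trav DEGs had the same sign. Of all genes tested there, 47.4% had a positive value. Among the V genes tested in WT nodes, 3 Trbv genes were called higher in CD4+ and 4 higher in CD8+ cells there. For Trav genes these counts were 4 and 4, so the one-sided Trav split of the WT calls was not found there.

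Ptprc, which encodes CD45, was expressed at overlapping levels in both lineages (log2 fold change 0.21, not called). Both held the same main isoforms, in different estimated shares. CD45 is the phosphatase that sets the threshold of T cell receptor signaling, and its exons 4, 5 and 6 (also called A, B and C) are spliced in or out as T cells mature and activate. These exons lie on the minus strand of chromosome 1 (GRCm38, GENCODE M21) at chr1:138122456-138122584, chr1:138120020-138120166 and chr1:138117754-138117894. Their sequences in transcript Ptprc-207 are shown in capitals with 10 bases of each neighbouring exon, and below them the junction of Ptprc-203, a model that lacks all 3, with the exon after the gap (chr1:138116954-138117025) in capitals.
Exon 4: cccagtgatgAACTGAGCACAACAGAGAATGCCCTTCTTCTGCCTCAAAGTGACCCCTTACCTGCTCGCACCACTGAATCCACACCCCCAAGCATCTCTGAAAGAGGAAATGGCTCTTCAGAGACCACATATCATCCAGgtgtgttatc
Exon 5: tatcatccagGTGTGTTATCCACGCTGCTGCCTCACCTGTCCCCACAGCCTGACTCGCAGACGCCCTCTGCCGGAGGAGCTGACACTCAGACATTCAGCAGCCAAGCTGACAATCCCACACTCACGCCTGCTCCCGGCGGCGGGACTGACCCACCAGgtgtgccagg
Exon 6: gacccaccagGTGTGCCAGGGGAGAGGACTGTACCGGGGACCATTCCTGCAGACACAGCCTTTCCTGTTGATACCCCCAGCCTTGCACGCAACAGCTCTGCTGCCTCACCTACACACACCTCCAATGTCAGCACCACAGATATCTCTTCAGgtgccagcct
Junction: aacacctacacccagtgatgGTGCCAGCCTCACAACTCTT
Ptprc-203, the listed model with most exons among those without the 3, took 57.6%, 55.6%, 48.3% and 55.3% of Ptprc TPM in CD4+ libraries and 36.3%, 37.5%, 36.5% and 40.6% in CD8+ libraries. Ptprc-207, the listed model with all 3, took 2.51% ± 0.747 in CD4+ and 11.4% ± 3.01 in CD8+ cells (SD, n = 4). Transcripts that hold exon 5 (Ptprc-207 and the partial model Ptprc-213) together took 24.6% ± 0.918 in CD4+ and 41.0% ± 2.66 in CD8+ cells, and those that hold exon 4 took 3.43% ± 0.767 and 13.9% ± 2.11.

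In each of these measures the CD4+ and CD8+ libraries did not overlap, so each gave the smallest p that 4 against 4 libraries allow (exact two-sided permutation test, p = 0.0286). For the single transcripts the p was 0.0531 after adjustment over the 13 transcripts of 5 genes tested (exact permutation test), and the exon sums, which are built from the same transcripts, were not adjusted. The CD8+ libraries held larger shares of Ptprc-207 and of exon 4 and exon 5, and the CD4+ libraries a larger share of Ptprc-203. The shares are Salmon's estimates from short reads, and some models in the annotation are fragments, so absolute shares are uncertain.

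**Figure D4:**
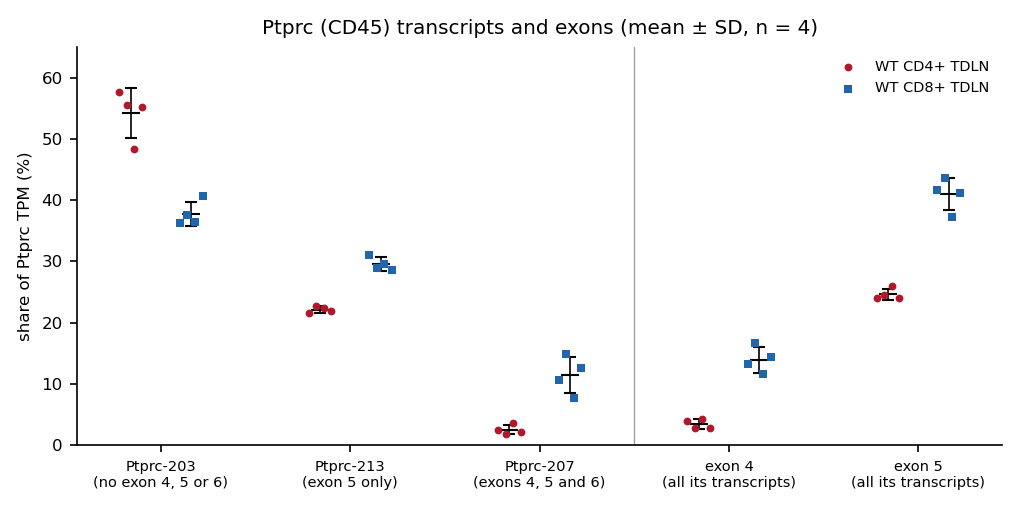
The share of Ptprc TPM (%) in each library, red circles for WT CD4+ and blue squares for WT CD8+ TDLNs, with the mean ± SD of 4 libraries; the left panel gives 3 transcripts and the right panel sums over all transcripts that hold exon 4 or exon 5. The CD4+ libraries lie above the CD8+ libraries for Ptprc-203 (54.2% against 37.7%) and below them in the other 4 columns.

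In the nodes labelled Yap-cKO the differences had the same direction. Yap1 itself, the targeted gene, measured 1.39, 1.62, 2.47 and 2.27 CPM in CD4+ and 1.75, 1.13, 4.86 and 1.48 CPM in CD8+ libraries labelled Yap-cKO. These values overlap those of the WT nodes, so the gene level does not separate the genotypes, and which exons the floxed allele loses is not given in the sources used here. Of the 481 DEGs, 464 were tested there, and all 464 had the same sign, against 47.4% of all tested genes with a positive value. Called in the same direction were 262, which is 54.5% of the WT DEGs and 81.1% of the 323 DEGs (2.49% of 12954 tested) of the nodes labelled Yap-cKO. Those 323 fell to 164 without CD8+ replicate 2, 165 without CD4+ replicate 3, 170 without CD4+ replicate 2 and 207 without CD8+ replicate 1, and were 575 with DESeq2 and 491 without a count filter. By direction, 126 of the 276 genes higher in CD4+ (1.2% of all tested there) and 136 of the 205 higher in CD8+ cells (1.3%) were called again. The DEGs higher in CD8+ cells had a median log2 fold change of -2.02 in WT and -2.03 in Yap-cKO-labelled nodes, and those higher in CD4+ cells 2.11 and 1.75. The term for a difference between genotypes was significant for 0 of 13867 genes in edgeR (80 at an unadjusted p under 0.05) and for 2 with DESeq2. The 5 genes with the smallest p were Gzmc, Lrrc23, Rflna, Havcr2 and Gm49383, each at an edgeR adjusted p of 0.999889. The genotypes were not shown to differ, and a p that misses the threshold does not show that they were alike.

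In the tumor, part of the difference between the lineages was smaller. A tissue term was significant for 62 of 15063 genes (0.412%), of which 22 (0.146%) shifted toward CD4+ cells in the tumor and 40 (0.266%) toward CD8+ cells. With the replicate block 110 were, and with DESeq2 164. Without single libraries the count fell to 30 (WT CD4 TDLNs replicate 3), 33 (CD4 TILs replicate 2), 34, 35 and 37 (CD8 TDLNs replicates 2, 3 and 1) and 38 (CD4 TDLNs replicate 2 or CD4 TILs replicate 4). Of the 62, 59 were DEGs in the node (12.3% of the node DEGs and 95.2% of the 62), and all 59 had a smaller absolute difference in the tumor, with the opposite sign in 20 of these 59. The node libraries enter both tests, so the 2 lists are not independent. Whether node and tumor libraries with the same number came from one mouse is not given by the labels. Y-linked genes summed to 5.07 CPM in CD4+ and 4.24 CPM in CD8+ TILs of replicate 4. In replicates 1 to 3 of the TILs they summed to 47.8 to 137 CPM, the same split as in the node. The fit that gave the 62 genes held no term for mouse. The tumor libraries held more RNA of other cells: the melanoma and stromal markers without Pecam1 summed to 6485 to 18397 CPM in CD4+ and 4443 to 15405 CPM in CD8+ TILs, against 14.4 to 21.2 CPM in the 8 node libraries. The 20 myeloid and dendritic markers summed to 1037 to 1887 CPM in CD4+ and 938 to 2327 CPM in CD8+ TILs. In the node these sums were 343 to 747 and 374 to 906 CPM. The part of this RNA in the tissue term was not tested.

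The 5 genes with the smallest p were Myo10, Havcr2, Haao, Gm49391 and Gas7. Myo10, which encodes an unconventional myosin of filopodia, had a log2 fold change of 4.51 in the node and -0.36 in the tumor (difference -4.87, SE 0.51; edgeR adjusted p = 0.00025), with 32.2 to 62.9 CPM in CD4+ and 34.0 to 120 CPM in CD8+ TILs. Havcr2 went from 4.17 in the node to -1.97 in the tumor (difference -6.14, SE 0.65). It measured 4.23 to 11.8 CPM in CD4+ and 17.4 to 44.4 CPM in CD8+ TILs, so the CD8+ libraries held the higher level there. The part of other cells in these Havcr2 values was not tested. Haao, low in CD4+ cells of the node, measured 2.5 to 4.67 CPM in CD4+ and 5.93 to 14.3 CPM in CD8+ TILs.

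Of 21 chemokine receptors tested for the tissue term, Ccr9 and Cxcr3 passed, and of 17 naive and memory genes Ly6c1 did. The share over all tested genes was 0.412%. Ly6c1 had a log2 fold change of 6.03 in the node and 0.32 in the tumor, and Ly6c2 of -7.00 and -2.22. Ccr9 measured 2.70 to 5.45 CPM in CD4+ and 5.71 to 10.7 CPM in CD8+ TILs, with a log2 fold change of -3.68 in the node and -0.83 in the tumor (difference 2.86, SE 0.44; edgeR adjusted p = 0.0095). Cxcr3 changed sign, from -2.37 in the node to 0.87 in the tumor (difference 3.24, SE 0.56; edgeR adjusted p = 0.014), with 83.4 to 333 CPM in CD4+ and 83.5 to 207 CPM in CD8+ TILs, which overlap.

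**Figure D5:**
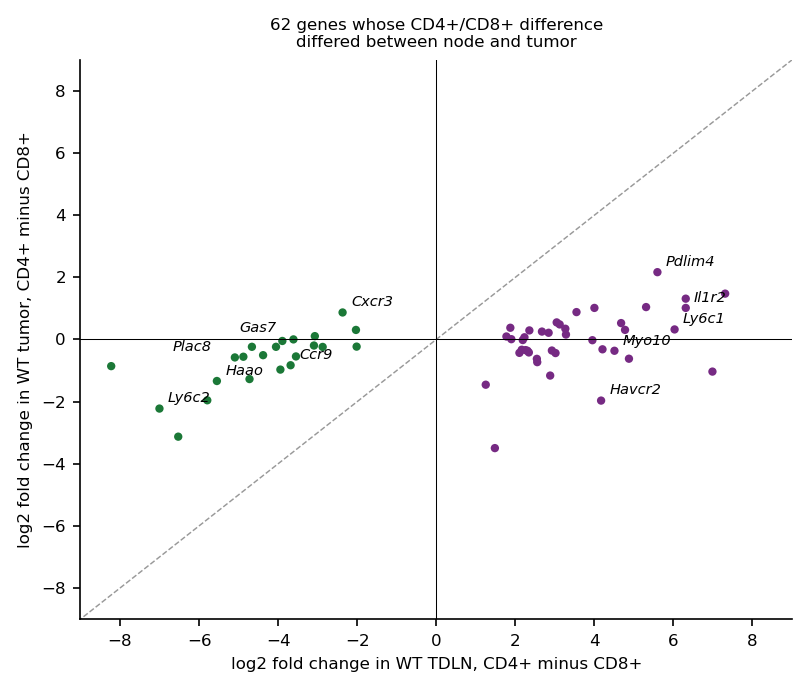
The CD4+ minus CD8+ log2 fold change in the WT node (x axis) and in the WT tumor (y axis) for the 62 genes with a significant tissue term; green points became more positive and purple points more negative in the tumor, and the dashed line marks equal values. Most points lie near 0 on the tumor axis, and Havcr2 and Cxcr3 lie on opposite sides of 0 in the 2 tissues.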

How the data were processed

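The authors sorted T cells into lysis reagent, made cDNA with SMART-Seq v4 (an unstranded kit) and sequenced 75-base paired reads. The deposited transcript tables hold expected counts and TPM that the authors made with Salmon 0.9.1 against build mm10, after Trimmomatic. Gene-level values are sums of a gene's expected counts as deposited (GENCODE M21, 111787 of 112092 transcripts matched, 34932 genes), rounded to whole numbers. Unmatched transcripts held 0.0778 to 0.17% of counts. The tested genes, those reaching 10 counts in 4 or more libraries, were fitted with edgeR 4.0.16 (TMM factors, quasi-likelihood, Benjamini-Hochberg), on the 8 WT node libraries only. Interactions with genotype and tissue were fitted over the groups they compare. Transcript shares are shares of a gene's TPM, compared by exact two-sided permutation tests. Libraries held 15918058 to 21813436 counts, and 3 counts, the floor for bounds, were 0.138 to 0.188 CPM. Bounds cover counting error only.

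Same-numbered CD4+ and CD8+ libraries deviated together in WT nodes (correlation of deviations from group means 0.433 to 0.836) and were taken as paired in the replicate block, a pairing seen in the data and not stated by the labels. The main fit did not use this pairing. For WT replicate 3 the value was 0.433, against 0.429 for the best other number. In Yap-cKO nodes the correlations were 0.74, 0.51 and 0.391 for replicates 1 to 3. Replicate 4 did not deviate together (-0.0834), so the Yap-cKO libraries were not taken as paired. Replicates differed by more than counting noise, so none was merged. The members and gene lists were chosen with earlier results of these data known. Genes named by size were the 12 largest in each direction among DEGs with separate values and at least 5 CPM, without receptor segments, pseudogenes and numbered models, beside list members, the 5 largest V genes in each direction and the 5 smallest p of each interaction. On simulated counts for the node comparison (12524 genes), 4 of 97 genes changed 2-fold (4.12%) and 62 of 99 changed 4-fold (62.6%) passed the adjusted p, and 3 unchanged genes were called. Alternatives were DESeq2 1.42.0, RLE size factors, no count filter, transcript length offsets, the replicate block, and leaving out libraries. A term for each mouse in the genotype interaction was added after seeing the data. Promoter windows had entries for 75.8% of tested genes, so shares of motifs between gene groups were not compared.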

Additional observations from a re-analysis of the deposited data

Results flagged for a closer look

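Of 218 groups of 4 values looked at (109 genes in 2 cell types), 18 held a value far from the other 3 by Dixon's criterion, and chance flags about 1 in 20. CD4+ replicate 2 was the highest of its group for Klra7 (0.0463 CPM), Prf1 (53.7 CPM), Ctsw (154 CPM), Il2rb (463 CPM), Izumo1r (216 CPM), Tnfrsf25 (96.6 CPM), Cd5 (797 CPM) and Trbv5 (81.1 CPM). CD4+ replicate 4 was the highest for Slamf7 (4.50 CPM), Nrp1 (36.8 CPM) and Mki67 (23.7 CPM), and CD8+ replicate 4 for Ccr9 (133 CPM) and Mki67 (5.91 CPM). CD4+ replicate 3 was the highest for Cd79b (14.7 CPM) and Plac8 (4.81 CPM), CD8+ replicate 2 for Gzma (9.05 CPM) and CD8+ replicate 3 for Lrrc32 (2.82 CPM). CD4+ replicate 1 was the lowest for Ctla4 (312 CPM).

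The CD4+ minus CD8+ difference differed between tumor and node (tumor minus node, log2, edgeR interaction term) by -4.87 for Myo10, -6.14 for Havcr2, 4.21 for Haao, 7.37 for Gm49391 and 4.43 for Gas7. Gm49391 was at 0 CPM in every WT CD4+ node library and at 1.40 to 2.65 CPM in the CD8+ node libraries. The size of its difference is therefore uncertain.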

How the results depend on the processing

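The 481 DEGs of the WT nodes became 721 with DESeq2, 532 without a count filter, 476 with RLE size factors, 409 with transcript length offsets and 891 with the replicate block, and ranged from 272 (without CD4+ replicate 3) to 653 (without CD8+ replicate 4) when 1 library was left out. The 323 of the Yap-cKO nodes became 575 with DESeq2 and 491 without a count filter, and ranged from 164 to 318 without 1 library. The 62 tissue interactions became 164 with DESeq2, 96 without a count filter and 110 with the replicate block, and ranged from 30 (without WT CD4 TDLNs replicate 3) to 69. The genotype interaction gave 2 genes with DESeq2 and 0 otherwise. Of 97 named DEGs, DESeq2 and the replicate block lost 0, RLE size factors 2, no count filter 3 and length offsets 7, and 24 were lost without at least 1 library. The log2 fold change of Mki67, not called, ran from -1.26 to 3.81 without 1 library, and this was the only sign change among 109 named genes under these alternatives. The cause of these shifts was not tested. Depth limits genes near 3 counts.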
